A study of Mus musculus with 16 samples.

Results

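The melanocyte pigment genes followed here were Tyr, Tyrp1, Dct, Pmel, Mlana, Oca2, Slc45a2 and Mc1r, 8 of the 20832 named genes on a whole-genome array of mouse wound RNA. They were chosen by name, and every probe that the RefSeq table assigned to one of them was read, which gave 10 of the 39429 probes that are not controls. The arrays came from female WT mice of strain C57BL/6J, aged 10 to 12 weeks, and from female db/db mice of strain C57BLKS/J Iar-+Lepr db/+Lepr db, which carry the Lepr db mutation on both chromosomes and are diabetic, aged 10 weeks. The dorsum was shaved the day before 2 full-thickness punch wounds of 4 mm were made, and each wound was taken with the intact skin around it. The WT group and the db/db group had no topical agent, the db/db + estrogen group had estradiol benzoate in sesame oil on the wound every day, and the db/db + vehicle group had the sesame oil alone. Each of these 4 groups had 2 arrays for labelled day 7 and 2 for labelled day 14, 16 in all. Nothing states whether the 2 arrays of a group were of separate mice, so p-values measure the spread between these samples, and 2 arrays a group limit the precision of every value. The SE of each gene was drawn from the spread within all 8 groups, so groups outside a comparison weigh on its SE and p-value. Genotype and strain cannot be told apart between the WT and db/db mice, whose strains both have black coats.

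Melanocytes make the pigment melanin in an organelle, the melanosome, and pass it to keratinocytes. In the furry skin of a mouse most of them sit in hair follicles, and they make pigment while the hair grows and not while the follicle rests. Tyrosinase (Tyr) starts the synthesis from tyrosine, dopachrome tautomerase (Dct) and tyrosinase-related protein 1 (Tyrp1) act after it, Pmel forms the fibrils on which melanin is laid down, Mlana is a small melanosomal protein, Oca2 and Slc45a2 are melanosomal transporters that set the conditions for tyrosinase, and Mc1r is the receptor for melanocyte-stimulating hormone. The transcription factor MITF drives most of these genes through E-box letters in their promoters, often in the extended form called the M-box.

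The promoter sequences are shown for their motif letters, whose relation to the changes in level below was not tested. RefSeq promoters of build GRCm38.p6, 250 bases before the annotated start and 50 after it, were found for 5 of the 8 genes. None was found for Pmel, Mlana or Slc45a2. The core of the M-box, TCATGTG, and the E-boxes CATGTG and CACGTG were searched on both strands. The letters CATGTG are part of the M-box core, so a promoter with the M-box core also counts for CATGTG. The M-box core was present in 4 of the 5 promoters, those of Tyr, Tyrp1, Dct and Mc1r, and in 3.77% of the 32851 promoters of the same length in the table. The Oca2 promoter held CATGTG alone, on the opposite strand. Read along the strand of the gene, it began 186 bases before the start. That E-box was present in 14.15% of the promoters. No member promoter held CACGTG, which was present in 7.15% of them. The 4 promoters with the M-box core are given 5′ to 3′ on the strand of the gene, with capitals for the motif letters on either strand.
Tyr, chr7:87493463-87493762, minus strand: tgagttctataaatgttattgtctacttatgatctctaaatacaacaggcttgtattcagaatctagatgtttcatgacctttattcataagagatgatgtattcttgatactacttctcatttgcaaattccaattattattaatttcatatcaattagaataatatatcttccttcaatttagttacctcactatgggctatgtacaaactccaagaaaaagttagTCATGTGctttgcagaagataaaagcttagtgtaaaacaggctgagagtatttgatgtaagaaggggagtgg
Tyrp1, chr4:80833963-80834262, plus strand: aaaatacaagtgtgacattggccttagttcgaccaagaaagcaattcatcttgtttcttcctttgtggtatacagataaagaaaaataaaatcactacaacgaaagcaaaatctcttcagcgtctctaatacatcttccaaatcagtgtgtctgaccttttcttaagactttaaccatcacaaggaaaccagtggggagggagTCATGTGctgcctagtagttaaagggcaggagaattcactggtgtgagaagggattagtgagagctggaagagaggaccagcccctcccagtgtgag
Dct, chr14:118052197-118052496, minus strand: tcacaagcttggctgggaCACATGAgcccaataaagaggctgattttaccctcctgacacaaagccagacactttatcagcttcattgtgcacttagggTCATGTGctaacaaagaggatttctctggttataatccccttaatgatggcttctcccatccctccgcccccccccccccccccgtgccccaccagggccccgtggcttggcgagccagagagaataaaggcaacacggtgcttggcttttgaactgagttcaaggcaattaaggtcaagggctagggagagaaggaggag
Mc1r, chr8:123406832-123407131, plus strand: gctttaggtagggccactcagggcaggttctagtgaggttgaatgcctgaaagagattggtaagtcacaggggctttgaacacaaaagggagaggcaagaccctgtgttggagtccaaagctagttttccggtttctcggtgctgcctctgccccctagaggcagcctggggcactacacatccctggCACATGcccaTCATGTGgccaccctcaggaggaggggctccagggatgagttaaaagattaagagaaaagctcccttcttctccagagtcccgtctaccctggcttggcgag
Positions are given for the leftmost letter as printed, for motifs on either strand. The M-box core lay 22 bases before the start in Tyr and 47 before it in Tyrp1. Dct held it at 151 bases before the start and on the opposite strand at 232 bases, and Mc1r held it at 52 bases with a CATGTG on the opposite strand at 62 bases. A match is a description of the letters and not of binding.

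A level is given as the log2 of the array's processed signal minus the log2 of that array's 75th percentile, so 0 is the 75th percentile of the array, and levels of different probes are not compared. The 75th percentile ranged from 1091 to 2548 signal units, the scanner's own mark put 70.1% to 79.0% of an array's probes well above background, and 0 spots were saturated. Markers of keratinocytes and fibroblasts were above background on all 16 arrays, and so were Mitf, Sox10, Pax3 and Kit, genes of the melanocyte lineage. Mast cells also carry Kit and Mitf, and Schwann cells share Sox10, so their detection does not mark melanocytes alone. The day labels were checked on 40 ratios of db/db to WT that the study lists for day 7 or day 14. Of these, 0 lay within 1% on the arrays of the same labelled day and 40 on those of the other. The deposited labels and the study thus disagree on the day, and the days are called labelled day 7 and labelled day 14 throughout. All labelled day 7 arrays were scanned on 1 day and all labelled day 14 arrays on another, so labelled day and scan day cannot be told apart. On 2 of the 8 groups the replicates stood apart for these genes. In the db/db + vehicle group on labelled day 7, replicate 2 was above replicate 1 for 8 of 8 genes, by a median of 2.31 on the log2 scale, and in the WT group on labelled day 14, replicate 1 was above replicate 2 for 7 of 8 genes, with a median gap of 1.43. The median gap was between 0.09 and 0.78 in the other groups. On labelled day 7 replicate 2 was also above replicate 1 for 8 of 8 genes with estrogen, 7 of 8 in WT and 5 of 8 in db/db. All replicate 2 arrays of that labelled day were on 1 slide and all replicate 1 arrays on another.

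On labelled day 7, 6 of the 8 pigment genes were lower in untreated db/db wounds than in WT. The same 6 were higher with estrogen in oil than in untreated db/db wounds. Against the oil alone 5 genes were called higher with estrogen, 0 of them with an adjusted p below 0.05. Tyr was called in none of these comparisons. Mlana was near its WT level in untreated db/db wounds and low with the vehicle. A gene was called where limma's unadjusted p was below 0.05 and the change was over 2-fold. Against WT, 6 of the 8 genes were called lower in the db/db group (Oca2, Dct, Slc45a2, Tyrp1, Pmel and Mc1r), where 14.1% of all probes tested were called. All 6 had a limma adjusted p below 0.05. Oca2 and Slc45a2 were above background on neither db/db array, so their p-values rest partly on signal below background. The median log2 fold change over all 8 genes was −3.61, against −0.05 over all probes tested. In a bulk sample fewer melanocytes and less RNA in each melanocyte cannot be told apart. In the db/db + vehicle group 7 of 8 genes were called lower than in WT, all but Tyr, against a background of 10.3%. Oca2 was above background on neither vehicle array and Slc45a2 on 1, so these 2 calls also rest partly on signal below background. In the db/db + estrogen group 0 of 8 genes were called against WT by limma and 0 had an unadjusted p below 0.05, against a background of 8.13%, and the median was −1.14.

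Within the db/db mice, 6 of 8 genes were called higher with estrogen than without treatment (Oca2, Tyrp1, Dct, Slc45a2, Pmel and Mc1r) where 9.92% of all probes were called, and the median log2 fold change was 2.20. Only Oca2 had a limma adjusted p below 0.05. It was above background on neither db/db array, so that p rests partly on signal below background. Slc45a2 was also above background on neither db/db array. The comparisons of the db/db group with WT and of the db/db + estrogen group with the db/db group share the 2 db/db arrays. Leaving out replicate 2 of the db/db + estrogen group reduced this count to 1, and leaving out either db/db array reduced it to 3. Between the estrogen and vehicle groups 5 of 8 genes were called higher with estrogen (Tyrp1, Mlana, Dct, Oca2 and Slc45a2), against a background of 8.99%, and 0 of them had an adjusted p below 0.05. That count was 0 without replicate 1 of the db/db + vehicle group and 1 without replicate 2 of the db/db + estrogen group. Oca2 was above background on neither vehicle array and Slc45a2 on 1, so their calls for estrogen against vehicle rest partly on signal below background. With vehicle against no treatment 1 of the 6 genes tested was called, Mlana, which was lower, against a background of 4.82%. Without replicate 1 or without replicate 2 of the db/db + vehicle group the count was 3.

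**Figure D1:**
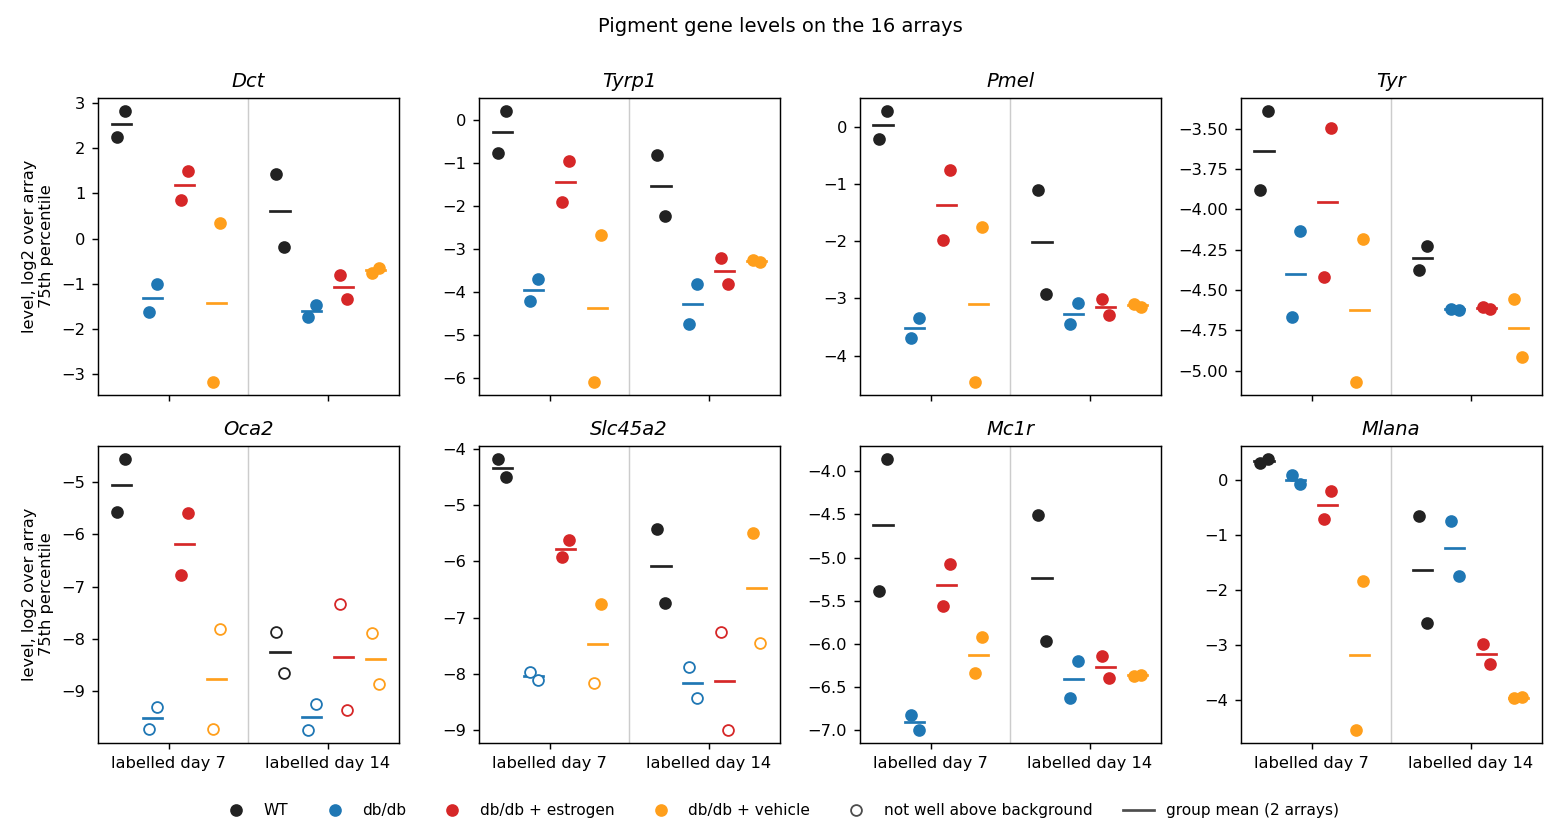
Level of each pigment gene on each of the 16 arrays (y axis, log2 over the array's 75th percentile, with a scale of its own for each gene) for the 4 groups on labelled day 7 and labelled day 14; points are arrays, open points were not well above background, and lines are means of 2 arrays. Dct on labelled day 7 was between 2.24 and 2.81 in WT, between −1.62 and −1.01 in db/db and between 0.86 and 1.49 in db/db + estrogen, while Mlana in db/db lay between −0.08 and 0.10.

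Fewer of the genes were called on labelled day 14. Against WT, 4 of the 7 genes tested were called lower in the db/db group (Tyrp1, Dct, Slc45a2 and Mc1r), against a background of 18.0%, and limma's adjusted p was below 0.05 for 0 of them. The 2 db/db arrays were on 1 slide and the 2 WT arrays on another, and the count was 2 with the slide as a fixed block. It was 0 without replicate 1 of the WT group and 1 without either db/db array. With estrogen 1 of 7 genes was called lower than in WT, Slc45a2, against a background of 13.3%, and the count was 5 without replicate 2 of the WT group and 0 without replicate 1 of it or without replicate 2 of the db/db + estrogen group. With vehicle 1 of 7 was called lower than in WT, Mlana, against a background of 13.4%, a count that was 2 without replicate 2 of the WT group and 0 without replicate 1 of it or of the vehicle group. Against untreated db/db, Mlana was the 1 gene called of the 6 tested with estrogen, against a background of 3.91%, and the 1 called of 6 with vehicle, against a background of 7.51%, lower in both. Between estrogen and vehicle limma called 0 of 6 genes and 0 had an unadjusted p below 0.05, against a background of 0.984%.

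The differences between the labelled days were tested in the same limma model. For estrogen against vehicle, 4 of 8 genes differed between the days by the call rule (Slc45a2, Tyrp1, Dct and Oca2), against a background of 7.16%, all with the higher log2 fold change on labelled day 7. None had an adjusted p below 0.05, and the count was 1 without replicate 1 of the db/db + vehicle group on labelled day 7 and between 1 and 6 over the 8 arrays left out in turn. For db/db against WT 1 of 8 genes was called, Oca2, against 9.39%. For estrogen against db/db 0 of 8 were called by limma, and 0 had an unadjusted p below 0.05, against 6.27%, and for vehicle against db/db 0 of 6 were called and 0 had an unadjusted p below 0.05, against 2.81%. The 6 genes called with estrogen against db/db on labelled day 7 were therefore not shown to differ between the days. Of the 5 called with estrogen against vehicle, 4 passed the call rule for the difference, none with an adjusted p below 0.05. Among these, Oca2 was above background on no estrogen or vehicle array of labelled day 14, and Slc45a2 on 1 vehicle array only.

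Dct, the enzyme that converts dopachrome, showed the pattern most plainly. Its level on labelled day 7 was 2.24 and 2.81 in WT wounds, −1.62 and −1.01 in db/db wounds, 0.86 and 1.49 with estrogen, and −3.17 and 0.34 with vehicle. Neither the WT nor the estrogen arrays overlapped any other group of that day, whereas the vehicle arrays lay on both sides of the db/db arrays. The mean was 2.53 ± 0.41 (SD, n = 2) in WT, −1.31 ± 0.43 (SD, n = 2) in db/db and 1.18 ± 0.45 (SD, n = 2) in db/db + estrogen. Dct was reduced 14.3-fold in db/db against WT (log2 fold change −3.84 ± 0.92 SE, limma adjusted p = 0.024). The labelled day 7 arrays lay on 2 slides that each held 1 array of every group, and within the slides this difference was −3.86 and −3.83. Estrogen left Dct 5.62-fold above untreated db/db (2.49 ± 0.92 SE, limma adjusted p = 0.157), and within the slides the difference was 2.48 and 2.50. The SE of 0.92 was shared by all comparisons of 2 groups. It took in the wide spread of the vehicle arrays on labelled day 7 (SD 2.48, n = 2). Estrogen against vehicle gave 2.59 ± 0.92 SE (limma adjusted p = 0.148), with 4.03 within the slide of the low vehicle array and 1.15 within the other. The second Dct probe gave −3.86 for db/db against WT and 2.52 for estrogen against db/db.

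The Dct level on labelled day 14 was 1.43 and −0.20 in WT, −1.73 and −1.47 in db/db, −0.80 and −1.34 with estrogen, and −0.76 and −0.64 with vehicle. Both WT arrays were above all 6 db/db arrays of that day. Dct was reduced 4.65-fold in db/db against WT (−2.22 ± 0.92 SE, limma adjusted p = 0.116), and the differences of either treated group from db/db, 0.53 and 0.90, were smaller than their SE of 0.92. Over the 8 groups, Dct was highest in WT on labelled day 7, followed by estrogen on labelled day 7, WT on labelled day 14 and vehicle on labelled day 14. Of the 7 pairs of neighbours in that order 4 overlapped, one of them estrogen on labelled day 7 with WT on labelled day 14.

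Tyrp1, which acts late in the making of brown-black melanin, followed Dct array by array. On labelled day 7 its level was −0.77 and 0.20 in WT, −4.20 and −3.70 in db/db, −1.91 and −0.96 with estrogen and −6.09 and −2.67 with vehicle. It was reduced 12.7-fold in db/db against WT (−3.67 ± 0.93 SE, limma adjusted p = 0.031) and 5.71-fold above the db/db group with estrogen (2.51 ± 0.93 SE, limma adjusted p = 0.162). Tyrp1 on labelled day 14 was −0.82 and −2.23 in WT and between −4.75 and −3.22 on the 6 db/db arrays, and its 6.79-fold difference between db/db and WT was called (limma adjusted p = 0.064).

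Tyr, which carries out the first step of the pathway, varied over a smaller range than its relatives Dct and Tyrp1. Its 3 highest groups were the same as theirs, in the same order. Its probe A_66_P135323 was above background on 16 of 16 arrays, with levels of −3.88 and −3.39 in WT, −4.67 and −4.14 in db/db, −4.42 and −3.50 with estrogen and −5.07 and −4.18 with vehicle on labelled day 7. The range over all arrays was 1.68 on the log2 scale, against 5.98 for Dct and 6.30 for Tyrp1. The difference of db/db from WT was −0.77 ± 0.36 SE (limma adjusted p = 0.186), and no comparison called the gene. With vehicle it was 1.98-fold below WT, short of the 2-fold limit (−0.99 ± 0.36 SE, limma adjusted p = 0.119). All 7 pairs of neighbouring groups in the order of its levels overlapped. The other probe, A_51_P102311, was above background on none of the arrays, so the 2 probes of Tyr disagree on whether a transcript was detected, and which of them reads the mRNA was not tested.

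Pmel, the fibril protein, was −0.21 and 0.28 in WT on labelled day 7, −3.69 and −3.34 in db/db, −1.99 and −0.76 with estrogen, and −4.46 and −1.75 with vehicle. It was reduced 11.7-fold in db/db against WT (−3.55 ± 0.81 SE, limma adjusted p = 0.020) and 4.42-fold above the db/db group with estrogen (2.14 ± 0.81 SE, limma adjusted p = 0.169). Estrogen and vehicle arrays overlapped, and their difference of 1.73 ± 0.81 SE was not called. Pmel on labelled day 14 was between −3.45 and −3.01 on the 6 db/db arrays, and −1.11 and −2.92 in WT.

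The transporters were above background on some arrays only, 4 of 16 for Oca2 and 8 of 16 for Slc45a2. Where a group had no array above background, the fold is a lower limit set by the dimmest probes that were above background on its arrays. Oca2 was −5.56 and −4.56 in WT and −6.78 and −5.60 with estrogen on labelled day 7, and these were its only arrays above background. It was reduced at least 5.08-fold in db/db against WT (limma adjusted p = 0.0077), at least 2.32-fold above the db/db group with estrogen (limma adjusted p = 0.039) and at least 2.09-fold higher with estrogen than with vehicle (limma adjusted p = 0.104). None of the 8 arrays of labelled day 14 was above background for Oca2, so its difference between the labelled days rests on levels with no order there.

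Slc45a2 was −4.19 and −4.51 in WT and −5.92 and −5.62 with estrogen on labelled day 7, and no db/db array was above background on either day. It was reduced at least 8.32-fold in db/db against WT (limma adjusted p = 0.013) and at least 3.10-fold above the db/db group with estrogen (limma adjusted p = 0.118). With vehicle 1 of 2 arrays was above background on each labelled day, at −6.76 and −5.49. On labelled day 7 Slc45a2 was higher with estrogen than with vehicle by 1.69 ± 0.75 SE. That call was close to the limit (limma unadjusted p = 0.049, adjusted p = 0.238). In WT on labelled day 14 it was −5.42 and −6.74, and it was below background on both estrogen arrays, reduced at least 2.26-fold in db/db against WT and at least 2.10-fold lower with estrogen than in WT (limma adjusted p = 0.080 and 0.109).

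Mc1r, the receptor, was −5.39 and −3.86 in WT on labelled day 7, −6.82 and −7.00 in db/db, −5.57 and −5.07 with estrogen and −6.33 and −5.92 with vehicle. It was reduced 4.87-fold in db/db against WT (−2.28 ± 0.52 SE, limma adjusted p = 0.020) and 3.01-fold above the db/db group with estrogen (1.59 ± 0.52 SE, limma adjusted p = 0.113). The vehicle arrays lay between the db/db and the estrogen arrays, and neither difference from them was called (0.78 ± 0.52 SE above db/db, 0.81 ± 0.52 SE below estrogen). On labelled day 14 the 6 db/db arrays lay between −6.63 and −6.14, below the −4.51 and −5.96 of WT.

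For estrogen against WT on labelled day 7, where 0 of 8 genes were called by limma, the count was 2 with the slide as a fixed block and 1 with the replicate block. All 8 log2 fold changes were below 0, from −0.32 in Tyr to −1.43 in Slc45a2. Within each of the 2 slides all 8 genes were lower with estrogen than in WT, Dct by −1.38 and −1.32 and Tyrp1 by −1.14 and −1.17. Without a block the 95% interval ran from −3.39 to 0.69 for Dct, from −3.24 to 0.93 for Tyrp1 and from −3.11 to 0.26 for Slc45a2. Each of these intervals held both no difference and a level more than 8-fold lower than in WT.

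**Figure D2:**
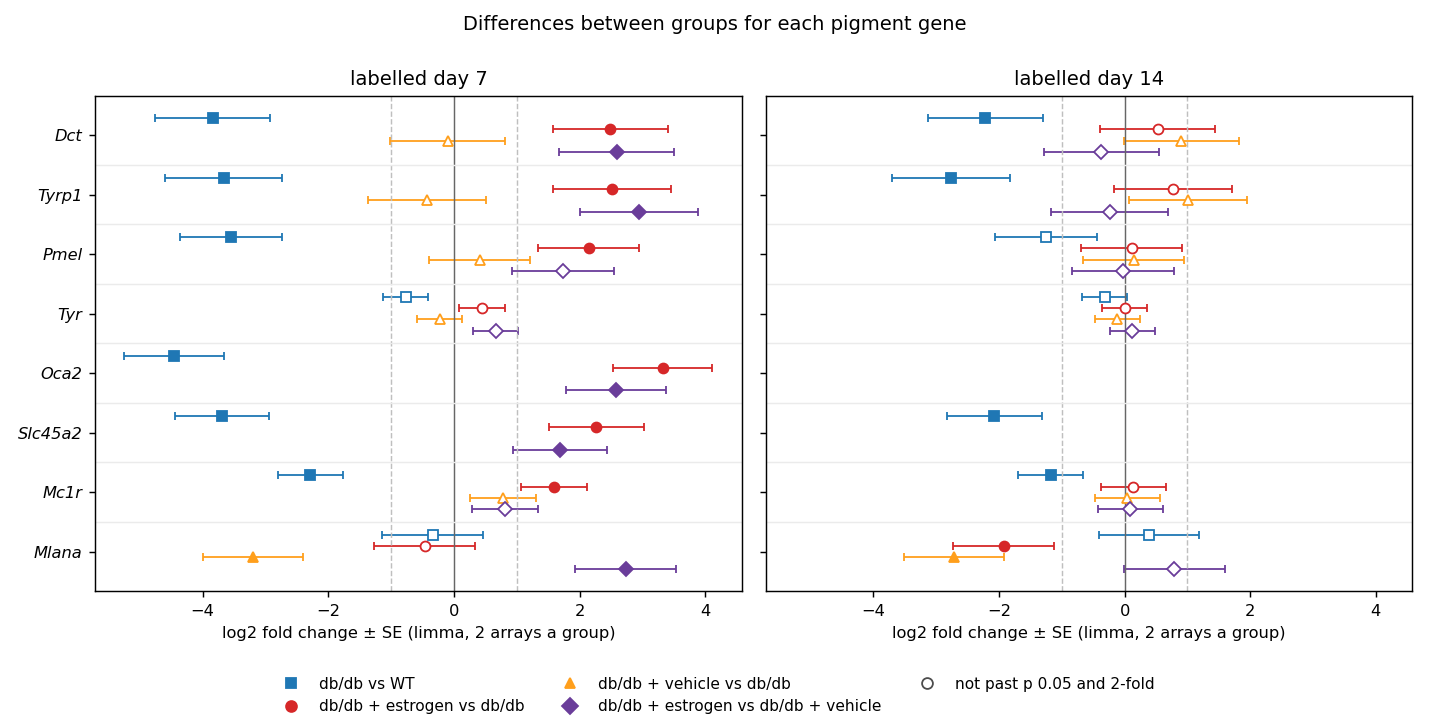
Log2 fold change of each pigment gene with its SE (x axis) for 4 comparisons on labelled day 7 (left) and labelled day 14 (right); filled symbols passed limma's unadjusted p of 0.05 and 2-fold, dashed lines mark 2-fold, and comparisons not tested have no symbol. On labelled day 7 db/db against WT lay at −3.84 for Dct and −0.34 for Mlana, and vehicle against db/db lay at −0.10 for Dct and −3.20 for Mlana.

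Mlana, which encodes the melanosomal protein also called MART-1, had an order of its own. On labelled day 7 it was 0.32 and 0.38 in WT, 0.10 and −0.08 in db/db, −0.71 and −0.20 with estrogen and −4.54 and −1.83 with vehicle. The untreated db/db arrays were within 0.5 of the WT arrays, and the vehicle arrays were below all others of that day. Mlana differed by −0.34 ± 0.80 SE between db/db and WT (limma adjusted p = 0.818), with a 95% interval from −2.13 to 1.45. It was 9.18-fold lower with vehicle than in untreated db/db (−3.20 ± 0.80 SE, limma adjusted p = 0.141) and 6.65-fold higher with estrogen than with vehicle (2.73 ± 0.80 SE, limma adjusted p = 0.094). Within the slides the vehicle arrays were below the db/db arrays by −4.64 and −1.76.

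Mlana on labelled day 14 was −0.66 and −2.59 in WT, −0.73 and −1.74 in db/db, −2.98 and −3.34 with estrogen and −3.97 and −3.94 with vehicle. All 4 arrays with sesame oil, with or without estradiol benzoate, were below all 4 arrays without it. Mlana was 3.79-fold lower with estrogen than in db/db (−1.92 ± 0.80 SE, limma adjusted p = 0.516) and 6.58-fold lower with vehicle (−2.72 ± 0.80 SE, limma adjusted p = 0.148). The count for estrogen was 0 without replicate 1 of the db/db group, without either estrogen array, or with the slide as a fixed block, and the count for vehicle was 0 without replicate 1 of the db/db group and 2 without replicate 2 of the vehicle group. Within the slide that held arrays of all 3 db/db groups, the difference from db/db was −1.74 with estrogen and −2.73 with vehicle.

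As a description over the 16 arrays, which share groups and slides, Pearson's r was 0.985 between Tyrp1 and Dct and 0.976 between Dct and Pmel. The r of each gene with the mean of the others (Oca2 left out of that mean) was 0.973 for Dct, 0.969 for Pmel, 0.945 for Tyrp1, 0.895 for Oca2, 0.858 for Tyr, 0.829 for Mc1r, 0.826 for Slc45a2 and 0.565 for Mlana. With the group means taken out, Mlana had r of 0.896 with Dct and 0.887 with Pmel, values in which the wide gaps of the db/db + vehicle group on labelled day 7 and the WT group on labelled day 14 weigh most. The array of a group with more Dct also had more Mlana in 6 of the 8 groups, and the order was opposite in the db/db group on both labelled days, where replicate 2 minus replicate 1 was 0.61 for Dct and −0.17 for Mlana on labelled day 7 and 0.25 and −1.01 on labelled day 14. Over all 16889 genes with signal well above background on at least 8 arrays, the ones whose levels were most like the mean of the 7 pigment genes other than Oca2, each centred on its own mean, were Ptgds (r = 0.967), which encodes a prostaglandin D2 synthase, Ccl27a (0.948), a skin chemokine, Lef1 (0.935), a transcription factor of the Wnt pathway, and Pax3 (0.932), a transcription factor of the melanocyte lineage. With the group means taken out these 4 had r of 0.899, 0.850, 0.730 and 0.827. Mycn (0.913), Alox12e (0.909), Ripply3 (0.904), Flrt1 (0.897), Ttc38 (0.893) and Lrig1 (0.891) followed. The gene most like Mlana was Kit (r = 0.955), the receptor for stem cell factor on melanocytes and mast cells, ahead of Slc8a2 (0.908), and Mlana was chosen for this ranking after its values were seen.

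**Figure D3:**
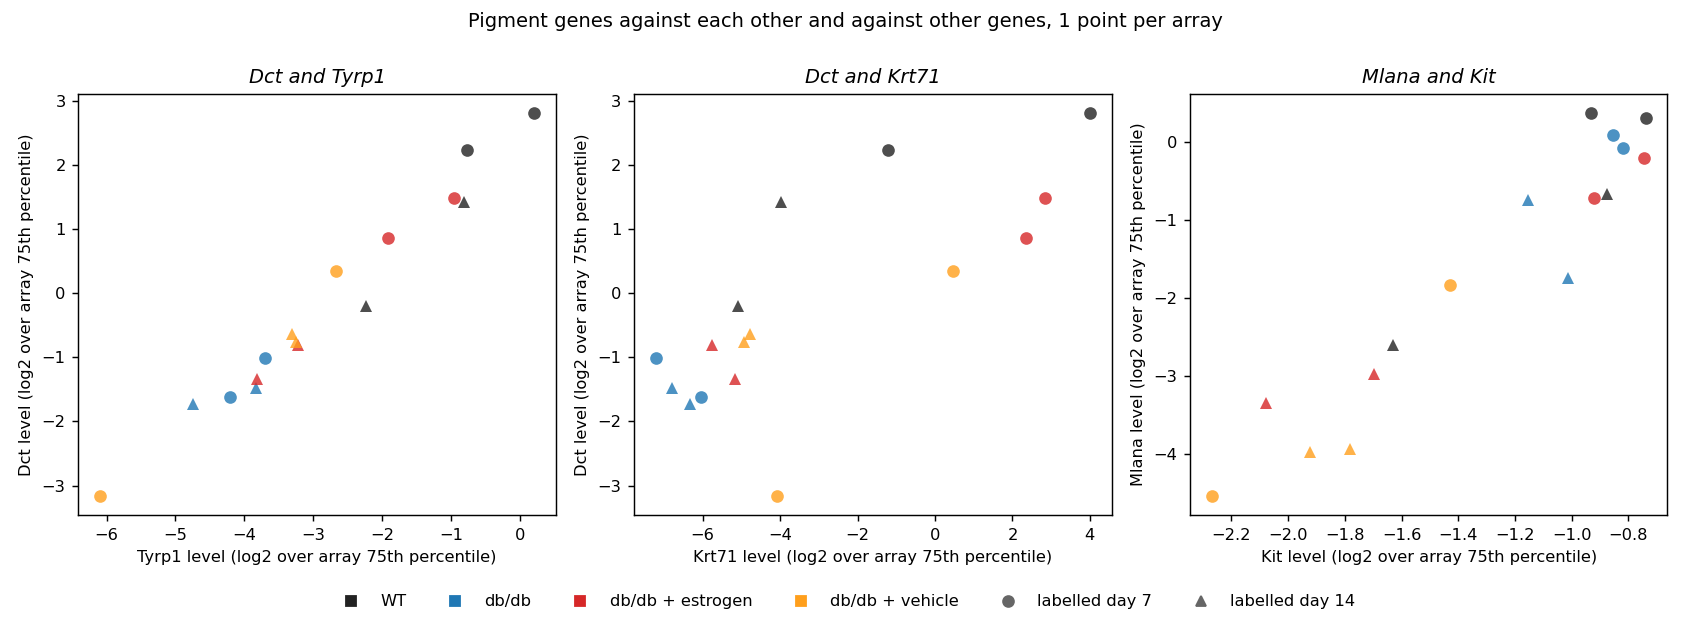
Level of Dct against Tyrp1 (left), Dct against the inner root sheath keratin Krt71 (centre) and Mlana against Kit (right), both axes in log2 over the array's 75th percentile, with 1 point per array, colour for the group and shape for the labelled day. Dct and Tyrp1 lie along a line (r = 0.985), whereas the WT arrays of labelled day 7 have similar Dct at Krt71 levels of −1.20 and 4.0.

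Among 15 regulators of the melanocyte lineage, 14 were tested in db/db against WT on labelled day 7. Of these 5 were called lower and 1 higher, against a background of 14.1%, and the median log2 fold change was −0.51. The transcription factors Lef1 (−2.75, limma adjusted p = 0.019), Tfap2b (−2.10, limma adjusted p = 0.011), Foxd3 (−1.96, limma adjusted p = 0.078), Sox10 (−1.25, limma adjusted p = 0.057) and Pax3 (−1.02, limma adjusted p = 0.022) were lower, and Tfec, a relative of MITF, was higher (1.89, limma adjusted p = 0.016). Mitf itself was 1.48 and 1.34 in WT, 1.84 and 1.75 in db/db, 2.10 and 2.13 with estrogen and 1.47 and 1.34 with vehicle on labelled day 7. The difference between db/db and WT was 0.38 ± 0.16 SE (limma adjusted p = 0.135), below the 2-fold limit. With estrogen against db/db 5 regulators were called higher and 1 lower of 14, against a background of 9.92%. Tfap2b was higher by 2.59 (limma adjusted p = 0.0064), Snai2 by 1.16 (limma adjusted p = 0.0096) and Sox10 by 1.01 (limma adjusted p = 0.169). Against vehicle 5 of 14 were called higher with estrogen and 0 lower, against a background of 8.99%.

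Sox10, which activates Mitf and Dct, was −2.20 and −1.18 in WT, −2.51 and −3.36 in db/db, −1.91 and −1.94 with estrogen and −3.09 and −3.10 with vehicle on labelled day 7. It was also lower in each of the db/db groups than in WT on labelled day 14, by −1.42 in db/db, −1.65 with estrogen and −1.88 with vehicle. Kit was between −0.93 and −0.74 on the 6 arrays of WT, db/db and db/db + estrogen on labelled day 7 and was −2.27 and −1.43 with vehicle, a difference from db/db of −1.01 that was called. On labelled day 14 Kit was −1.15 and −1.01 in db/db, −1.70 and −2.08 with estrogen and −1.92 and −1.78 with vehicle, and neither difference from db/db was called. Kitl, the ligand of Kit, was not called on either labelled day between db/db and WT or for either treatment against db/db, with log2 fold changes from −0.76 to 0.35. Ednrb, the endothelin receptor of melanoblasts and of other skin cells, was higher with estrogen than in db/db on labelled day 7 (1.85, limma adjusted p = 0.129), and its ligand Edn3 was above background on 1 of 16 arrays.

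Of the genes around Mc1r, Pomc, whose product is cut to melanocyte-stimulating hormone, was 0.90 higher in db/db than in WT on labelled day 7 (limma adjusted p = 0.0082), below the 2-fold limit. Asip, the antagonist of Mc1r, was not analysed here. Of 28 genes for melanosome making and transport, 3 were called lower and 2 higher in db/db than in WT on labelled day 7, with a median of 0.26, and 0 were called higher and 2 lower with estrogen against db/db of 27 tested. Over all probes 14.1% and 9.92% were called in these comparisons, so the counts of this list were near or below the background and its members are given as single values. The lower ones in db/db included 2 that are largely confined to pigment cells, the melanosomal receptor Gpr143 (−1.64, limma adjusted p = 0.030) and the ion exchanger Slc24a5 (−1.67, limma adjusted p = 0.0094). The third was Cited1, a transcriptional co-regulator (−1.43, limma adjusted p = 0.034), and the higher ones were Gpnmb (1.55, limma adjusted p = 0.161) and Rab32, a small GTPase of melanosome transport (1.27, limma adjusted p = 0.0048). Slc7a11, a cystine transporter used for red-yellow pigment and widely against oxidative stress, was lower with estrogen than in db/db (−4.38, with 1 of the 2 estrogen arrays above background, limma adjusted p = 0.030), opposite to the pigment genes, and Gpnmb, which macrophages also make, was lower by the call rule (−1.53, limma adjusted p = 0.249).

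Genes of the hair shaft and inner root sheath moved with the pigment genes on labelled day 7. Of 21 tested, 13 were called lower and 0 higher in db/db than in WT, with a median log2 fold change of −2.0, and of 23 tested, 18 were called higher and 0 lower with estrogen against db/db, with a median of 2.24. The share called over all probes was 14.1% and 9.92%. Hoxc13, a transcription factor of the growing hair, was −3.76 in db/db against WT (limma adjusted p = 0.00042) and 2.54 with estrogen against db/db (limma adjusted p = 0.0046). The summed level of the list, in multiples of the array's 75th percentile, was 13.4 to 50.7 in WT, 4.64 to 5.71 in db/db, 22.4 to 26.0 with estrogen and 6.18 to 13.6 with vehicle on labelled day 7, and 5.56 to 10.3 in all groups on labelled day 14. The part of these cells in the pigment result was not tested.

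The hair genes differed among themselves in how closely they followed the pigment genes. Over the 16 arrays r with the mean of the pigment genes was 0.874 for Hoxc13 and 0.748 for Krt71. The mean log2 level over the 25 hair genes with a probe was −3.04 and −1.11 on the WT arrays of labelled day 7. Krt71, a keratin of the inner root sheath, was −1.20 and 4.0 on the WT arrays of labelled day 7, which differed by 0.58 for Dct, and was 0.46 on replicate 2 of the db/db + vehicle group, above WT replicate 1, where Dct was 0.34. On labelled day 14 it was −3.97 and −5.08 in WT, near the −4.93 and −4.77 with vehicle, while Dct was 1.43 on the first of the WT arrays. With vehicle against db/db 6 of 21 hair genes were called higher and 0 lower on labelled day 7, against 4.82% of all probes, where Mlana was the 1 pigment gene called.

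Schwann cells share Sox10 with melanocytes, so their markers were read beside it. Of 13 tested, 2 were called higher and 2 lower in db/db than in WT on labelled day 7, and 3 higher and 0 lower with estrogen against db/db, where 14.1% and 9.92% of all probes were called. The summed level was 23.2 to 24.7 in WT, 28.1 to 29.5 in db/db, 46.0 to 48.2 with estrogen and 23.3 to 27.1 with vehicle. Ngfr, a neurotrophin receptor of Schwann cells and other cells, was 3.69 and 3.75 with estrogen, against −0.90 and −2.07 in db/db and −0.50 and 0.41 with vehicle (5.20 against db/db, limma adjusted p = 0.0055). Mast cells carry Kit and Mitf, and a list of 11 of their genes was added after the likeness of Mlana and Kit was seen, so it is given without a test. Its summed level on labelled day 7 was 11.7 to 21.1 in WT, 40.3 to 59.7 in db/db, 40.6 to 44.2 with estrogen and 23.4 to 38.0 with vehicle. Over the 16 arrays r with Mlana was 0.865 for Gata2, and for the mast cell proteases Cpa3, Tpsb2, Cma1, Mcpt4 and Mcpt2 it was 0.298, 0.399, 0.173, 0.423 and −0.213. For the IgE receptor chains Ms4a2 and Fcer1a it was 0.102 and 0.047, for the histamine enzyme Hdc −0.011 and for Mitf −0.016. The part of Schwann cells and mast cells in the levels of Sox10, Kit and Mlana was not tested.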

How the data were processed

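Wound RNA was measured on 16 arrays of the 1-colour Agilent 4 x 44K type. The scanner files deposited by the authors hold an intensity for each spot, made with Feature Extraction 11.0.1.1 as a background-subtracted and spatially detrended signal, together with marks for spots well above background. The series matrix deposited by the authors holds a ratio on a linear scale, the signal over the array's 75th percentile, made in GeneSpring. Outlier spots were left out, spots of a probe were averaged, and log2 of the signal minus log2 of the array's 75th percentile was taken. Probes were named through RefSeq. Where a gene had several probes the brightest one on average was used.

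Groups came from the deposited labels. limma 3.58.1 in R 4.3.3 was fitted once to all 39429 probes with 1 coefficient for each of the 8 groups. A probe entered a comparison if at least 1 of the groups compared had it well above background on each of its 2 arrays, and p-values were adjusted by the Benjamini-Hochberg method over the probes tested. Intervals are 95% intervals of that model. The script was tested on simulated data. The genes named were all 8 pigment genes, up to 8 genes of each list by number of calls and then level, the main lineage and melanocortin regulators, and the 10 genes most like the members. The members and lists were chosen with earlier results of these data known. Alternatives were other background correction, scaling, filters, blocks, probe means and leaving out each array.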

Additional observations from a re-analysis of the deposited data

How the results depend on the processing

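Over the settings tried, the 38 called fold changes of single genes gave 578 values, all of which kept their direction, and 116 were no longer called. The 38 were chosen as called on these same arrays, so a kept direction is no independent support. The count for db/db against WT on labelled day 7 stayed within 1.5 times of 6, and that for vehicle against WT within 1.5 times of 7, under every setting. With normexp background correction the count was 3 for estrogen against db/db on labelled day 7, 2 on labelled day 14 for each db/db group against WT, and for the differences between days 1 for estrogen against db/db and 2 for estrogen against vehicle. With quantile normalization it was 2 for db/db against WT on labelled day 14, 0 for estrogen against db/db and 0 for estrogen against WT on that day, and 2 for the day difference of db/db and WT. With no filter on dim probes it was 2 for vehicle against db/db on labelled day 14. With probes well above background on all 4 arrays it was 3 for estrogen against vehicle on labelled day 7 and 0 for estrogen against WT on labelled day 14. With a floor on dim signals it was 2 for estrogen against WT on labelled day 7, 0 on labelled day 14, and 2 for vehicle against WT on labelled day 14. A fit of only the 4 arrays compared gave 2 for estrogen against vehicle and 2 for estrogen against WT on labelled day 7, and 2 for vehicle against db/db and 2 for vehicle against WT on labelled day 14. The slide as a fixed block gave 2 for estrogen against WT on labelled day 7, and on labelled day 14 gave 2 for db/db against WT, 0 for estrogen against db/db, 2 for estrogen against WT and 3 for vehicle against WT. The replicate differences of the groups had correlations with each other from −0.45 to 0.39. With a single difference a group, these cannot decide whether the replicate numbers pair the samples. On labelled day 7 the replicate number was also the slide. The replicate block gave 1 for estrogen against WT on labelled day 7, 2 on labelled day 14, and 3 for vehicle against WT on labelled day 14. By the adjusted p the count was 1 for estrogen against db/db on labelled day 7 and 0 for vehicle against db/db and for estrogen against vehicle, and it was 0 for all comparisons of labelled day 14 and for all day differences.

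Leaving out 1 array at a time gave counts on labelled day 7 of 6 to 7 for db/db against WT, 1 to 6 for estrogen against db/db, 1 to 3 for vehicle against db/db, 0 to 7 for estrogen against vehicle, 0 to 1 for estrogen against WT and 6 to 8 for vehicle against WT. On labelled day 14 the counts were 0 to 5, 0 to 1, 0 to 2, 0 to 1, 0 to 5 and 0 to 2 in the same order. For the differences between days this was chosen after seeing the data, and the counts were 0 to 3 for db/db against WT, 0 to 2 for estrogen against db/db, 0 to 2 for vehicle against db/db and 1 to 6 for estrogen against vehicle. Signal over background limits Oca2 and Slc45a2, whose differences are bounds.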
